A study of Mus musculus with 39 samples.

Results

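The genes described here are 9 transcription factors that drive or modulate the formation of fat cells: Pparg, Ppara and Ppard of the PPAR family, their partner receptor Rxra, Cebpa, Cebpb and Cebpd of the C/EBP family, and Klf15 and Ebf1. They were chosen by gene symbol, and they are 9 of the 29407 symbols on the array. They were read from 12 probes, all of which passed the filter on dim probes used for the tests. Cebpa, Rxra and Klf15 had 2 probes each and were read from the probe with the higher mean, and the other 6 genes had 1 probe.

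In the formation of fat cells, Cebpb and Cebpd are known to be induced early by hormonal cues, and they then switch on Pparg and Cebpa. Pparg and Cebpa maintain one another and bind near most genes of the mature fat cell, Pparg always as a pair with a retinoid X receptor such as Rxra. Ppara and Ppard are the receptors of the same family best known for fatty acid oxidation, and brown fat, which burns fatty acids for heat, is a tissue where Ppara is known to be prominent.

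C57BL/6J mice entered the feeding experiment after weaning at 3 to 4 weeks of age, with 30 animals per diet. LFC mice ate a low fat diet with 10% of calories from fat, HFC mice a diet with 60% of calories from fat and more sucrose, and HF5, HF20 and HF75 mice that high fat diet with the botanical formulation KAL-1 at 5, 20 or 75 µg. RNA came from the stromal vascular cells of brown fat, the cells left once floating fat cells are removed, and the labels call them infiltrating macrophages. Each of the 39 arrays was 1 diet at 1 time label, which gave 10 LFC arrays, 11 HFC arrays from Day 1 to Week 18, and 6 arrays each of HF5, HF20 and HF75 from Week 3 to Week 18. The labels do not say whether an array holds 1 animal or a pool, nor whether arrays are separate animals, so the spread given is that between arrays of different time labels and may be partly technical.

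All levels below are log2 of the background-subtracted spot signal minus the 75th percentile of the same array, so 0 is the 75th percentile and 1 unit is a doubling. Levels of different genes come from different probes and are not set against each other. The 75th percentile ran from 18.1 to 3974 intensity units with a median of 129.9, and 31.2% to 98.0% of spots were well above background. Scanner software marked spots as outliers on every array, up to 71.4% on HF20 Week 15, where Pparg, Ppara, Ppard and Cebpb have no value. The deposited table takes LFC as its baseline at 9 shared labels but the array titled HFC at Day 14, and 1 characteristic of HF20 Week 12 names the high fat diet alone. The label of macrophages was checked against marker genes. The fat cell genes Adipoq, Fabp4 and Plin1 and the brown fat gene Ucp1 were well above background on all 39 arrays, as were 6 of 10 macrophage markers and 8 of 10 stromal markers, so the RNA was not of macrophages alone. Ucp1 stood at -3.18 on HFC Week 12 and -3.16 on LFC Day 10, and between 1.48 and 8.82 on the other arrays.

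Of the 12 member probes, 4 are given as examples of the letters on the array, each with at least 1 reading frame without a stop. Those of Cebpa and Klf15 are the dimmer of their 2 probes and are not the ones behind the levels of these genes. Those of Cebpb and Ppard are their only probes.
Cebpa probe: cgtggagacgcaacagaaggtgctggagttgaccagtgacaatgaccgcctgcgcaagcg
Cebpb probe: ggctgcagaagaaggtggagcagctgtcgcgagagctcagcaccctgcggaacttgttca
Ppard probe: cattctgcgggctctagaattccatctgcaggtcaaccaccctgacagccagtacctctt
Klf15 probe: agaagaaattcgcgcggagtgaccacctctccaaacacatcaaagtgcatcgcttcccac

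The promoters of the genes whose levels were correlated across arrays (Cebpa, Ppara, Cebpb and Pparg) are given as the 250 bases before the RefSeq start in build GRCm38.p6. Capitals mark matches on either strand. The letters searched were TTGCNNAA for a C/EBP site and CCCNNGGG for an EBF site. A CCAAT box was read by its own letters. A GC box was searched as GGGCGG. The core site of a nuclear receptor was searched as AGGTCA. The TATA box was searched as TATAAA. Where 2 matches overlap, as in Cebpb, 1 run of capitals covers both.
Cebpa, chr7:35119043-35119292, plus strand: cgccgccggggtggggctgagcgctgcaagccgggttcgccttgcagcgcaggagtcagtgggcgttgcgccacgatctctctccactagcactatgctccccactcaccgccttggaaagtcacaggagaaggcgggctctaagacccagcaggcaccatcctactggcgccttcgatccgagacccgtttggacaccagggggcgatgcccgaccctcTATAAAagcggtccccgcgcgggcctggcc
Cebpb, chr2:167688665-167688914, plus strand: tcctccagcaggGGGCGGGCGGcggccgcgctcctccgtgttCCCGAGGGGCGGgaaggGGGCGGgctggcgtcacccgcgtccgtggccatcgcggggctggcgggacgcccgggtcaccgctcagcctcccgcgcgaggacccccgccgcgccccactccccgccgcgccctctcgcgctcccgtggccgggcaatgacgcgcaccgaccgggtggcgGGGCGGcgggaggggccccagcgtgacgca
Ppara, chr15:85735526-85735775, plus strand: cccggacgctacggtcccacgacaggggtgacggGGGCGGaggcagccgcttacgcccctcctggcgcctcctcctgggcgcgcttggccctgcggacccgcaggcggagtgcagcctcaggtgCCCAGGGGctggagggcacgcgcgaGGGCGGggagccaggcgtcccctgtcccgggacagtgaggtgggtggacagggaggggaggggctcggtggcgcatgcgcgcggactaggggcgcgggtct
Pparg, chr6:115421816-115422065, plus strand, the most downstream of its 3 starts: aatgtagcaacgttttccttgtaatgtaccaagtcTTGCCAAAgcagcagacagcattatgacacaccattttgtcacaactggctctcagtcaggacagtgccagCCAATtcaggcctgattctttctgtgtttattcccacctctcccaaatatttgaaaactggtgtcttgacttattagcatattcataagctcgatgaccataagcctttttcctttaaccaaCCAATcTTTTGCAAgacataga

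The Pparg window held 2 C/EBP matches, which begin 215 and 16 bases before the start, and 2 CCAAT boxes, at 144 and 22 bases. Of 32851 promoter windows of the same length, 9.56% held the C/EBP letters and 33.8% a CCAAT box. No other window of a member held the C/EBP letters, which says only that these letters were not found there. Cebpa had a TATA match 30 bases before its start, as 12.4% of windows had somewhere in their length. Cebpb had 5 GC boxes and Ppara 2, against at least 1 in 32.7% of windows. The nuclear receptor letters were found in 14.0% of windows, and among the members in 2 starts of Pparg that are not shown and in the downstream start of Rxra. EBF letters stood in the windows of Cebpb and Ppara and in 11.8% of all windows. The reference held a promoter for 8 of the 9 members.

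Pparg, the receptor that is required for fat cell formation, was well above background on all 39 arrays. It ranged from 2.04 on HFC Week 12 through a median of 4.63 to 6.97 on LFC Week 18, a 30.6-fold range. On LFC arrays the lowest, median and highest levels were 3.24, 5.26 and 6.97. On HFC arrays they were 2.04, 4.63 and 5.70. The diets overlapped over most of their range, and the arrays furthest apart were those of Week 12, 15 and 18, with HFC below LFC. In HF5 the levels were 2.39, 4.54 and 5.60, and in HF75 2.72, 3.95 and 5.60. The 5 HF20 arrays with a value stood at 4.21, 3.93, 4.71, 5.51 and 3.64. All arrays of the 3 KAL-1 diets lay within the range of HFC.

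Ppara, the receptor that drives fatty acid oxidation, had a wider range. It ran from -2.22 on HFC Week 12 through 1.04 to 5.00 on HFC Week 6, a 149-fold range within 1 diet. The lowest, median and highest levels were -1.43, 0.82 and 4.43 in LFC and -2.22, 0.85 and 5.00 in HFC. They were -0.30, 0.98 and 4.94 in HF5 and -0.34, 1.05 and 4.97 in HF75, and the 5 HF20 values were 0.46, 1.51, 3.03, 3.97 and 1.23. Arrays above 3 numbered 2 each in LFC, HFC, HF5 and HF20 and 1 in HF75, the other arrays stood below 2, and the diets overlapped almost fully.

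Ppard, the most broadly expressed receptor of the family, was at the limit of the assay. Its probe was well above background on 12 of 39 arrays, with 2 in LFC, 4 in HFC and 2 in each KAL-1 diet. Its level ran from -7.10 to -1.60 with a median of -4.53, and it was lower where the array was brighter (r = -0.599 and rho = -0.672 with the log2 75th percentile over 38 arrays). The part of brightness in its differences was not tested.

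Rxra, a retinoid X receptor of the kind that a PPAR pairs with to bind DNA, had the narrowest range of the 9 genes in log2 units. It ran from 1.68 through 2.68 to 4.48, or 6.98-fold. The diet medians were 2.58 in LFC, 2.43 in HFC, 3.16 in HF5, 2.30 in HF20 and 3.01 in HF75. The Week 3 arrays stood high: 3.37 in LFC, 3.03 in HFC, 3.73 in HF5, 4.08 in HF20 and 4.48 in HF75. The last 3 were the highest of all 39 arrays. The dimmer Rxra probe did not follow the brighter one (r = -0.225 over 38 arrays), so these levels hold for the brighter probe alone.

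**Figure D1:**
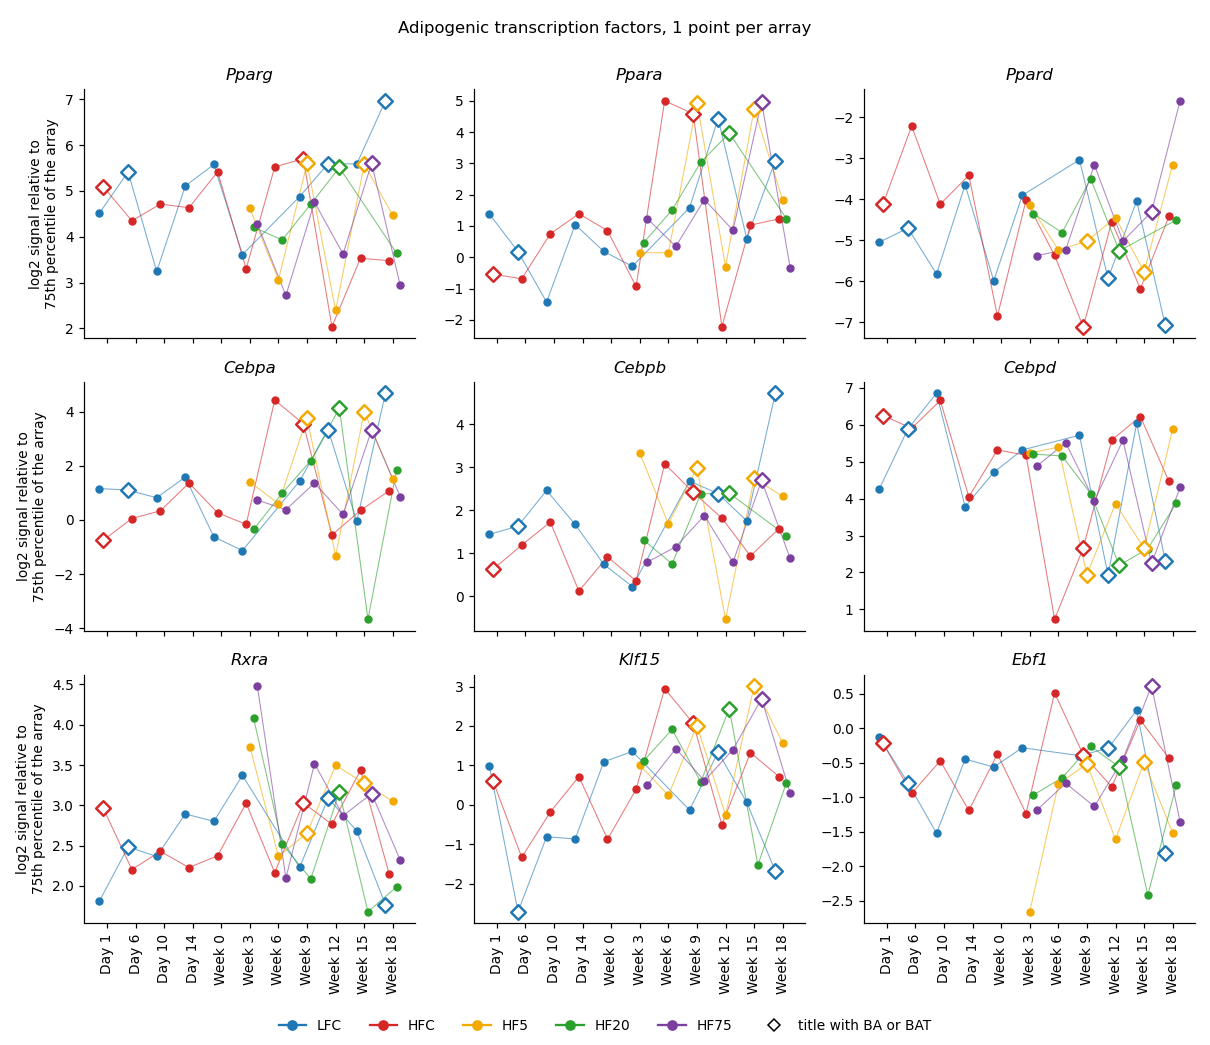
Level of each of the 9 genes (log2 signal relative to the 75th percentile of the array, own axis per gene) by time label, 1 point per array, coloured by diet and joined by lines within a diet; open diamonds are the 9 arrays with BA or BAT in the title. Ppara and Cebpa stand high on HFC Week 6 (5.00 and 4.43) and on most diamonds from Week 9 on, where Cebpd stands low (0.73 on HFC Week 6).

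Cebpa, the C/EBP factor of the mature fat cell, ran from -3.66 on HF20 Week 15 through 0.99 to 4.68 on LFC Week 18, or 324-fold. Its lowest, median and highest levels were -1.13, 1.13 and 4.68 in LFC, and -0.75, 0.34 and 4.43 in HFC. They were -1.33, 1.46 and 4.00 in HF5, -3.66, 1.41 and 4.13 in HF20, and 0.20, 0.80 and 3.32 in HF75. The array at the bottom is the one with 71.4% of spots marked, and without it the lowest level was -1.33 and the range 64.1-fold, narrower than those of Ppara and Cebpd (149-fold and 69.7-fold). The second probe of Cebpa followed the first (r = 0.857 over 36 arrays).

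Cebpb, an early activator that also serves in macrophages and in the induction of inflammatory genes, ran from -0.54 on HF5 Week 12 through 1.65 to 4.72 on LFC Week 18. Its medians were 1.71 in LFC, 1.19 in HFC, 2.53 in HF5, 1.41 in HF20 and 1.01 in HF75. The arrays of all diets overlapped, and the next array below LFC Week 18 was HF5 Week 3, at 3.33.

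Cebpd, the other early activator and a gene that responds quickly to inflammation and stress, ran the opposite way to Cebpa on several arrays. It was lowest, at 0.73, on HFC Week 6, where Cebpa was at 4.43, and highest, at 6.86, on LFC Day 10, with a median of 4.89. Its lowest, median and highest levels were 1.93, 5.02 and 6.86 in LFC and 0.73, 5.32 and 6.66 in HFC. The medians of HF5, HF20 and HF75 were 4.55, 4.01 and 4.60. The lowest level of each diet lay between 0.73 and 2.24, and all diets overlapped.

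Klf15, a factor that raises Pparg and the glucose transporter Slc2a4 in fat cells, ran from -2.71 on LFC Day 6 through 0.61 to 3.02 on HF5 Week 15. Its median was -0.04 in LFC, 0.59 in HFC, 1.29 in HF5, 0.84 in HF20 and 1.01 in HF75. The dimmer Klf15 probe followed the brighter one only weakly (r = 0.283 over 37 arrays). Ebf1, a factor of fat cell precursors and of B cells, ran from -2.66 on HF5 Week 3 through -0.56 to 0.61 on HF75 Week 15. Its lowest, median and highest levels were -1.24, -0.44 and 0.51 in HFC and -2.66, -1.17 and -0.49 in HF5, so the HF5 arrays took the lower part of the range and overlapped with HFC. The probe was well above background on 4 of 6 HF5 arrays and on all arrays of the other diets.

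With the 5 diets put in the order of their means for each gene, 35 of 36 neighbouring steps were smaller than both SDs. The exception was HF75 (3.07 ± 0.87, SD, n = 6) over HFC (2.62 ± 0.45, SD, n = 11) for Rxra, which was still within the larger SD. HF5 had the highest mean for 4 of 9 genes and LFC the lowest for 3. The LFC and HFC means include Day 1 to Week 0 and those of the KAL-1 diets begin at Week 3, so this order mixes diet with time. Day 14 and Week 0 are the same day of the study by its methods. If the titles are right, the arrays of those labels show how far 2 samples of 1 diet and day lay apart. The titles were kept here, though at Day 14 the deposited table takes the array titled HFC as its baseline. Over 9 genes and both diets, the absolute difference ran from 0.09 for Rxra in LFC to 3.43 for Ppard in HFC, with a median of 0.89, and 7 of 18 were over 1.

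The question of what the high fat diet does was addressed by HFC minus LFC, fitted with limma over all 39 arrays with a term for diet and a term for time label. Calls were made at a Benjamini-Hochberg adjusted p under 0.05 over 34035 probes. None of the 9 genes was called, where 0% of all probes were called and 959 (2.82%) had an unadjusted p under that value, which none of the 9 did. The fitted log2 differences ran from -0.66 for Cebpb to 0.56 for Klf15, with a median of 0.05, beside 0.05 over all probes.

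Pparg was 0.65 log2 units lower in HFC by the fit (difference -0.65, SE 0.49, 95% interval -1.65 to 0.35, limma adjusted p = 1.00). At Week 12, 15 and 18 it stood at 2.04, 3.53 and 3.48 in HFC against 5.60, 5.59 and 6.97 in LFC, where the spot of LFC Week 12 was saturated and 5.60 is a lower bound, and at the other 7 labels the difference lay between -1.07 and 1.47. In all it was lower in HFC at 7 of 10 labels. Where both arrays shared a scan date, at 6 labels, the mean difference was -1.38 ± 2.01 (SD). The LFC arrays of Week 12 and 18 carry BA or BAT in their titles, and without the 9 arrays so titled the fitted difference was -0.11.

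Cebpb was lower in HFC at 8 of 10 labels, by -3.15 at Week 18 and by -1.55 to -0.26 at the other 7. Its fitted difference was -0.66 (SE 0.46, 95% interval -1.60 to 0.28, limma adjusted p = 1.00), and the mean over the 6 labels of 1 scan date was -1.11 ± 1.14 (SD). With normexp background correction it was -0.03. At Day 14 (-1.55) the deposited table takes the array titled HFC as its baseline, and with those 2 arrays exchanged Cebpb was lower at 7 of 10 labels and its fitted difference was -0.36. Where neither array was titled BA or BAT it was lower at 3 of 5 labels. Klf15 had a difference of 0.56 (SE 0.52) and was higher at 6 of 10 labels, and the difference was 0.26 with the Day 14 arrays exchanged and -0.52 with array weights. Cebpa, at -0.41 (SE 0.80), Ppara, at -0.18 (SE 0.79), Cebpd, at 0.19 (SE 0.66), Ppard, at 0.24 (SE 0.53), Rxra, at 0.12 (SE 0.26), and Ebf1, at 0.05 (SE 0.32), had intervals that spanned 0. The 95% interval of Cebpa ran from -2.04 to 1.23 and that of Ppara from -1.81 to 1.44, so differences inside these bounds were not excluded.

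The question of KAL-1 was addressed by HF5, HF20 and HF75 minus HFC in the same fit. All 3 share the HFC arrays, so they are not independent of each other. None of the 9 genes was called in any of them, where 0% of probes were called in each. In HF5 minus HFC the fitted differences ran from -0.89 to 0.40, in HF20 minus HFC from -0.58 to 0.72 and in HF75 minus HFC from -0.34 to 0.89.

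Ebf1 was lower in HF5 than in HFC at every shared label. In HF5 from Week 3 to Week 18 it stood at -2.66, -0.81, -0.52, -1.61, -0.49 and -1.52. In HFC at the same labels it stood at -1.24, 0.51, -0.38, -0.85, 0.12 and -0.44. The HF5 array was the lower one at 6 of 6 labels, all with both arrays on 1 scan date, with differences between -1.42 and -0.13. The HF5 spots of Week 3 and Week 18 were not well above background, and at the other 4 labels the difference lay between -1.32 and -0.13. The fitted difference was -0.89 (SE 0.39, 95% interval -1.69 to -0.09, unadjusted limma p = 0.0308, adjusted p = 1.00), and 498 probes (1.46%) had an unadjusted p under 0.05 in this comparison. The sign was negative under all 30 alternatives, from -1.41 without the titled arrays to -0.20 with normexp. In HF20 minus HFC Ebf1 was at -0.58 (SE 0.39) and in HF75 minus HFC at -0.34 (SE 0.39). Stromal markers were below 0 in HF5 minus HFC for 10 of 10 genes (median -0.45), B cell markers for 4 of 7 (median -0.31) and endothelial markers for 6 of 6 (median -0.85), with 0 called in each. The mean level of the endothelial markers was 1.57 over the 6 HF5 arrays (Week 3 to 18) and 3.06 over the 11 HFC arrays (Day 1 to Week 18). These 2 means mix diet with time, and 6 of 6 endothelial markers had a time slope below 0 (median -0.285). Across arrays, Ebf1 had r = 0.332 with the mean level of the endothelial markers (0.502 without the titled arrays), 0.116 with the stromal and -0.175 with the B cell markers. Their part in the Ebf1 values was not tested. In a mixed cell sample, fewer cells of a type and less RNA per cell cannot be told apart.

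Ppard in HF75 was fitted at 0.89 (SE 0.66, 95% interval -0.46 to 2.23), on a probe well above background on 2 of 6 HF75 and 4 of 11 HFC arrays and on both arrays of 0 shared labels. The next positive difference was for Ppara in HF20, at 0.72 (SE 1.05, 95% interval -1.44 to 2.87). Its differences at the 5 labels were 1.39, -3.49, -1.55, 6.18 and 0.00 from Week 3 to Week 18, with no value at Week 15, so the mean rests on single arrays. The 6.18 of Week 12 sets a titled HF20 array against HFC Week 12, the array with the lowest Ucp1. Rxra was higher in HF5 at 4 of 6 labels (0.39, SE 0.32) and in HF75 at 4 of 6 (0.37, SE 0.32), and its difference in HF20 was -0.11 (SE 0.32). The dimmer Rxra probe was at -0.02 (SE 0.59) in HF5, 0.99 (SE 0.63) in HF20 and 0.59 (SE 0.59) in HF75, so the probes disagreed over the doses.

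**Figure D2:**
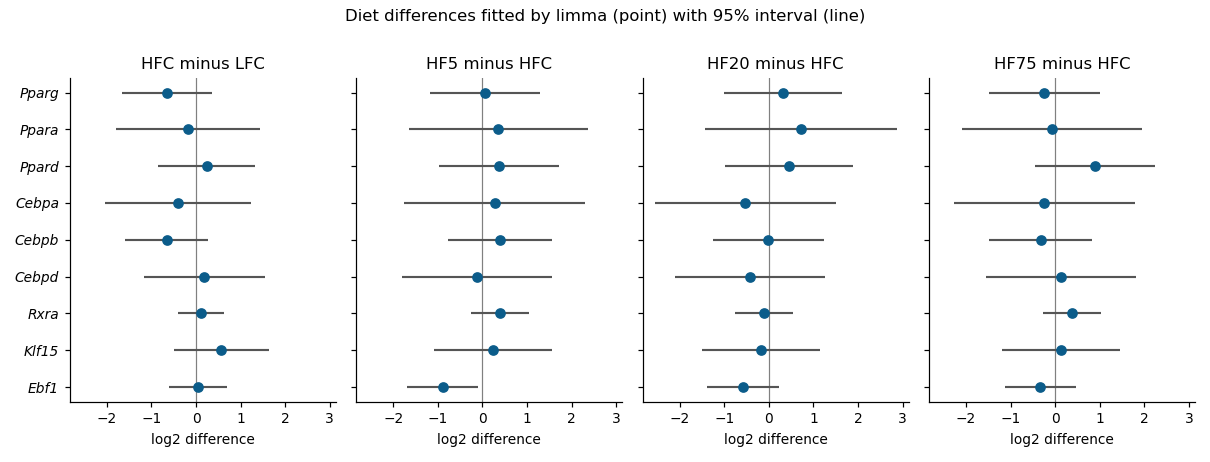
Fitted log2 difference between diets (x axis) for each of the 9 genes (y axis), with points for the limma estimate and lines for the 95% interval, in 4 panels by comparison. The interval includes 0 for every gene and comparison except Ebf1 in HF5 minus HFC (-1.69 to -0.09).

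A graded response was asked of the 24 arrays of HFC, HF5, HF20 and HF75 from Week 3 to Week 18, as a slope over the rank of the dose from 0 to 3 with a term for time label. None of the 9 genes was called (0% of probes called, 7.04% with an unadjusted p under 0.05). Slopes ran from -0.17 per step for Cebpa to 0.35 for Ppard (SE 0.18, limma adjusted p = 0.75). The Ppard slope was positive under all 29 alternatives, from 0.06 without the titled arrays to 0.51, and rests on a probe mostly at background.

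The change over time was asked of the 21 LFC and HFC arrays as a slope per doubling of days, with weeks counted from Day 14. None of the 9 genes was called (0% of probes called, 11.9% with an unadjusted p under 0.05). Ppara had a slope of 0.31 per doubling (SE 0.18), Cebpa of 0.27 (SE 0.16) and Cebpb of 0.21 (SE 0.10, unadjusted limma p = 0.0501, adjusted p = 0.419), while Cebpd had a slope of -0.26 (SE 0.16). Without the titled arrays the slopes of Ppara, Cebpa and Cebpd were 0.04, -0.02 and 0.02, an alternative that leaves out 5 of the 21 arrays. Pparg and Ebf1 had slopes of -0.01 and 0.01.

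Whether HFC minus LFC differed between Week 3 to 18 and Day 1 to Week 0 was asked with an interaction term over 20 arrays. None of the 9 genes was called (0% of probes called, 2.36% with an unadjusted p under 0.05). Pparg had the largest value: its mean difference was 0.07 ± 0.98 (SD) over the 5 early labels and -1.72 ± 1.94 (SD) over the 5 late labels. The interaction was -1.79 (SE 0.91, 95% interval -3.80 to 0.22, limma adjusted p = 1.00). Without HFC Week 12 and LFC Day 10, the arrays with the low Ucp1, it was -0.98. The dimmer Rxra probe was at -1.52 (SE 0.68) where the brighter was at 0.28 (SE 0.52), so the probes of this gene disagreed.

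Apart from diet and time, the arrays differ in a token of their titles. Of the 39 arrays, 9 carry BA or BAT in the title: HFC Day 1, LFC Day 6, HFC and HF5 Week 9, LFC and HF20 Week 12, HF5 and HF75 Week 15, and LFC Week 18. Many of the other titles, HFC Week 6 among them, hold the same letters with a separator, as B-A or B_A. The split therefore rests partly on punctuation. The labels do not say what the token stands for, and this comparison was made after the data were seen. With diet and time label as terms, 6 of the 9 genes were called between titled and other arrays, 4 higher and 2 lower. Of all 34035 probes 52.4% were called, 20.5% higher and 31.8% lower, so a call alone says little about any gene.

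Cebpa on the 9 titled arrays had a lowest level of -0.75, a median of 3.55 and a highest of 4.68. On the 30 other arrays these were -3.66, 0.67 and 4.43. At Week 9, 12, 15 and 18 and at Day 6 the titled arrays exceeded all the others of their label, and at Day 1 the titled array was lower. The fitted difference was 2.83 (SE 0.59, limma adjusted p = 0.000614), the largest among the members.

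Ppara had a lowest, median and highest level of -0.54, 4.43 and 4.97 on titled arrays and -2.22, 0.85 and 5.00 on 29 others. It was above all other arrays of its label at 5 of 6 labels, with Day 1 again the exception, and the difference was 2.71 (SE 0.61, limma adjusted p = 0.00108). Pparg had levels of 5.10, 5.60 and 6.97 on titled arrays and 2.04, 4.28 and 5.59 on others. Its difference was 1.69 (SE 0.37, limma adjusted p = 0.000974), with all titled arrays above the rest at 5 of 6 labels and the mean higher at 6 of 6. At Week 12 and Week 15 all 5 arrays of the label share 1 scan date. Within Week 12, the titled arrays stood 4.75 above the others for Ppara, 4.29 for Cebpa and 2.87 for Pparg, where 1 of the 2 titled Pparg spots was saturated. Within Week 15 the means stood 4.05 above for Ppara and 1.03 for Pparg, which have no value on HF20 Week 15, and 4.78 for Cebpa, or 3.51 without that array.

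Cebpb was higher on titled arrays by 1.1 (SE 0.41, limma adjusted p = 0.0278), with a median of 2.41 against 1.41. The call was lost without LFC Week 18 (0.79, adjusted p = 0.128) and with quantile normalization (0.82, adjusted p = 0.100). Cebpd was lower by 1.93 (difference -1.93, SE 0.55, limma adjusted p = 0.0056), with a median of 2.32 against 5.19, and all titled arrays lay below the others at 4 of 6 labels. Ppard, well above background on 6 of 9 titled and 6 of 30 other arrays, was lower (difference -1.53, SE 0.45, limma adjusted p = 0.00673), and with quantile normalization the difference was -0.23 (adjusted p = 0.731).

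Klf15 (0.92, SE 0.49, limma adjusted p = 0.111), Rxra (0.24, SE 0.25, adjusted p = 0.418) and Ebf1 (0.25, SE 0.31, adjusted p = 0.501) were not called. Klf15 was split among the titled arrays: it stood at -2.71 on LFC Day 6 and -1.68 on LFC Week 18, below all 30 other arrays, and between 0.59 and 3.02 on the other 7. Without LFC Week 18 its difference was 1.43 and was called. The dimmer Klf15 probe went the other way (-0.47, SE 0.42), and with the mean over both probes the difference was 0.06. The dimmer Rxra probe also went the other way (-0.62, SE 0.46).

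The scale between arrays matters here. The median difference over all probes was -0.30 as analysed, 0.20 with quantile normalization and -1.30 with normexp, and of the calls 39.2%, 67.7% and 27.2% were higher. Relative to these medians, Cebpa was at 3.12, 2.43 and 4.61, Ppara at 3.00, 2.11 and 3.94, and Pparg at 1.98, 1.30 and 4.26. Cebpb was at 1.39, 0.62 and 2.87 and Ppard at -1.23, -0.43 and -1.04. Cebpd was at -1.64 and -2.46 but at 0.89 with normexp, where its own difference was -0.40 (adjusted p = 0.454), so its direction relative to other probes turned with the background correction. Rxra turned to -0.32 with quantile normalization and was called with normexp.

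**Figure D3:**
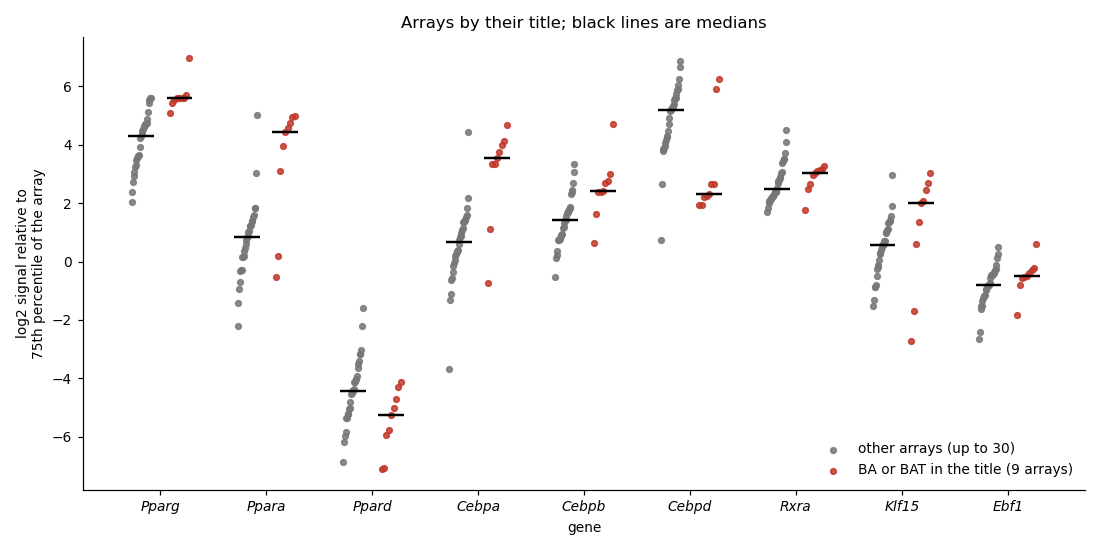
Level of each gene (log2 signal relative to the 75th percentile of the array) on the 9 arrays with BA or BAT in the title (red) and on up to 30 others (grey), each sorted from lowest to highest, with black lines for the medians. The medians of Ppara are 4.43 and 0.85 and those of Cebpd 2.32 and 5.19, while those of Rxra (3.03 and 2.48) lie within the overlap of both groups.

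HFC Week 6, an array without the token, had levels like most titled ones, with Ppara at 5.00, Cebpa at 4.43, Cebpb at 3.08, Klf15 at 2.95 and Cebpd at 0.73. Its mean level of neutrophil markers was -5.19, the lowest of all arrays, and that of fat cell markers 5.09. The titled arrays of Day 1 and Day 6 were unlike the other 7, with Ppara at -0.54 and 0.18 and Cebpd at 6.25 and 5.89.

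Other genes of the network were called in the title comparison, while in the diet, dose and time comparisons 0 genes of each list named here were called. Of 15 other factors that promote fat cell formation, 5 were called higher on titled arrays, among them Srebf1 (2.42), a driver of lipid synthesis, Nr1h3 (1.82), the liver X receptor, and Ebf2 (1.65), the brown fat relative of Ebf1. The other 2 were Stat5a (1.5) and Zfp467 (0.75). In the same list 4 were called lower, namely the early response factors Egr2 (-2.81), Klf5 (-2.05), Klf4 (-1.45) and Klf6 (-1.44). Of 17 factors known to restrain fat cell formation, 6 were called lower and none higher, where 31.8% of all probes were called lower, including Klf2 (-1.73), Dlk1 (-1.19), a marker of precursors, and Gata3 (-1.15), with a median of -0.73 against -0.30 over all probes. The count of 6 of 17 is close to the share of all probes. Of 14 receptor partners and coregulators, 7 were called higher and none lower, where 20.5% of all probes were called higher, with Ppargc1b at 3.14, Ppargc1a at 2.10, Rxrg at 1.79 and Rxrb at 1.44.

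Target genes of the members were read in the same comparison, where 20.5% of all probes were called higher and 31.8% lower. Of 19 targets of Pparg and Cebpa, 14 were called higher and 1 lower, with a median of 1.69. The Pparg and Cebpa targets include the brightest probes of the array, and 12 of the 19 were saturated on at least 3 of the 9 titled arrays, so their levels there are lower bounds. Plin1, the coat protein of the lipid droplet, was at 3.41, Adipoq at 2.21 and Lpl at 1.69, with saturated spots on 5, 6 and 6 titled arrays. Fabp4, the 1 called lower, was saturated on all 9 titled arrays and on 20 of the 30 others, so no difference is given for it. Agpat2 (3.30), which makes phosphatidic acid, and Lipe (2.52), the hormone-sensitive lipase, were not saturated on any array. Of 15 tested targets of Ppara and Ppard, 8 were called higher and 1 lower, with a median of 1.30, and 6 were saturated on 5 to 7 titled arrays. Without saturated spots were Ucp3 (3.37), Ehhadh (2.97) and Cpt1b (2.86), which act in the oxidation or handling of fatty acids in mitochondria and peroxisomes.

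Markers of cell types differed along with the members. Over all probes 20.5% were called higher and 31.8% lower, with a median of -0.30. Called higher or lower on titled arrays were 7 and 1 of 10 fat cell markers (median 1.57), 4 and 0 of 10 brown fat cell markers (0.73), 0 and 6 of 10 macrophage markers (-1.11), 0 and 6 of 10 stromal markers (-0.93), 0 and 8 of 8 neutrophil markers (-4.65), 0 and 4 of 7 B cell markers (-1.90), 0 and 5 of 7 T cell markers (-2.36), 0 and 1 of 6 endothelial markers (-0.635), and 0 and 0 of 8 skeletal muscle markers (0.80). The mean level of the neutrophil markers ran from -4.80 to 0.51 on titled arrays and from -5.19 to 4.12 on others, and that of the fat cell markers from 2.83 to 5.71 and from 0.82 to 5.09. Saturated spots on titled arrays touched 7 of the fat cell and 5 of the brown fat cell markers, so their levels and medians there are lower bounds. No fat cell marker was at 0 signal, and Lep was well above background on 18 arrays. Of the B cell, T cell and neutrophil markers, 0 of 7, 0 of 7 and 3 of 8 were well above background on all 39 arrays. All titled arrays but LFC Day 6 (123.6) lay above the median 75th percentile of 129.9, up to 1289 on LFC Week 12. The part of brightness in the levels of dim markers was not tested. How far these cell types account for the members' levels was not tested.

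In the diet comparisons the target lists stood as follows. In HFC minus LFC, 17 of 19 targets of Pparg and Cebpa (median -0.30) and 12 of 15 targets of Ppara and Ppard (median -0.32) were below 0, beside 9 of 10 fat cell markers (median -0.35) and 8 of 10 brown fat cell markers (median -0.56), with a median of 0.05 over all probes. In HF5 minus HFC, 16 of 19 (median 0.50), 13 of 15 (0.75), 9 of 10 (0.49) and 9 of 10 (1.05) of the same lists were above 0, with a median of -0.03 over all probes. These comparisons share the HFC arrays. In HF20 minus HFC, 11 of 19 (median 0.14), 10 of 15 (0.21), 5 of 10 (0.00) and 7 of 10 (0.63) were above 0. In HF75 minus HFC, 11 of 19 (0.27), 10 of 15 (0.46), 6 of 10 (0.22) and 9 of 10 (1.02) were above 0. Apart from Fabp4, the saturated spots of these lists lay on titled arrays and on HFC Week 6, with 1 on HFC Week 12. Genes of a list share cells and arrays and are not independent. Titled arrays were 3 of 10 in LFC, 2 of 11 in HFC, 2 of 6 in HF5, and 1 of 6 each in HF20 and HF75. In the title comparison these lists had medians of 1.69, 1.30, 1.57 and 0.73, in the order above. Without titled arrays, HFC minus LFC was 0.57 for Cebpa and 0.87 for Ppara, against -0.41 and -0.18 with them. That fit keeps HFC Week 6 (Cebpa 4.43, Ppara 5.00), an array like most titled ones that has no LFC array at its label. Leaving it out as well was not tested. Over the 5 labels where neither array was titled, the mean difference was 0.31 ± 0.65 (SD) for Cebpa and 0.59 ± 1.02 (SD) for Ppara. Pparg stayed below 0, at -0.11. The lists were not tested without the titled arrays.

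Across arrays, the levels of Ppara, Cebpa, Cebpb and Pparg were correlated. Each correlation is over 38 or 39 arrays that share diets, time labels and scan dates, and is a description. Among 36 pairs of members, 7 had r over 0.5 and 2 under -0.5, and the median was -0.02. Ppara and Cebpa had r = 0.884 and rho = 0.830 over 38 arrays, 0.865 without the 2 arrays farthest from the median, 0.787 over 29 arrays without the title token and 0.861 over the 9 with it. Cebpa and Cebpb had r = 0.784 (rho = 0.744, 0.650 without the token), and Pparg and Ppara r = 0.672 (rho = 0.667, 0.592 without the token). The other 3 pairs of these genes had a lower r without the token: Pparg and Cebpa 0.638 and 0.415, Pparg and Cebpb 0.572 and 0.345, and Ppara and Cebpb 0.575 and 0.346.

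Cebpd had a negative r with each of these 4 genes. With Ppara it had r = -0.825 (rho = -0.685, -0.622 without the token), and with Cebpa r = -0.619 (rho = -0.580), which was -0.247 on the 30 arrays without the token. With Pparg it had -0.486 (-0.225 without the token) and with Cebpb -0.448 (-0.054), so without the token r was beyond -0.5 with Ppara alone. That value includes HFC Week 6, with Ppara at 5.00 and Cebpd at 0.73, so it may rest largely on 1 array, which was not tested. Rxra had r between -0.193 and 0.334 with each other member, and Ppard had no r beyond -0.332.

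**Figure D4:**
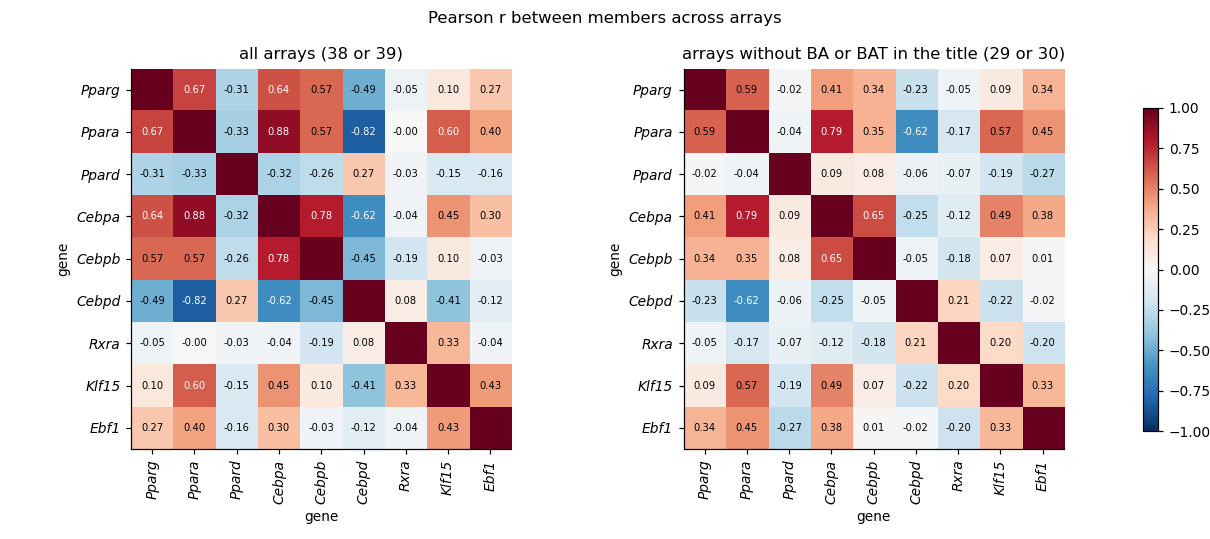
Pearson r between the levels of each pair of the 9 genes (colour and printed value) across all arrays (left) and across arrays without BA or BAT in the title (right). Ppara with Cebpa is at 0.88 and 0.79, and Cebpa with Cebpd at -0.62 and -0.25.

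The levels of the members were also set beside the mean level of each marker list on the same arrays. Cebpa followed the fat cell markers with r = 0.892 (rho = 0.872) over 39 arrays, and 0.823 on the 30 without the token. Ppara had r = 0.781 with them (0.666 without the token), Cebpb 0.734 (0.557) and Pparg 0.644 (0.436). Cebpd followed the stromal markers, with r = 0.762 (rho = 0.737, 0.690 without the token), and had r = -0.519 with the fat cell markers, which was -0.191 without the token. Cebpd also had r = 0.878 with the mean of the factors that restrain fat cell formation (0.771 without the token). With the factors that promote fat cell formation its r was 0.601 (0.649 without the token). With neutrophil, endothelial, B cell, macrophage and T cell markers Cebpd had r = 0.637, 0.574, 0.554, 0.553 and 0.55. Without the token these were 0.329, 0.374, 0.217, 0.405 and 0.156. Brightness of the array had r = -0.504 (rho = -0.293) with Cebpd and 0.163 (rho = 0.079) with Cebpa. With Ppara it had r = 0.408 (rho = 0.176), with Pparg 0.332 (rho = 0.43) and with Cebpb 0.306 (rho = 0.31).

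**Figure D5:**
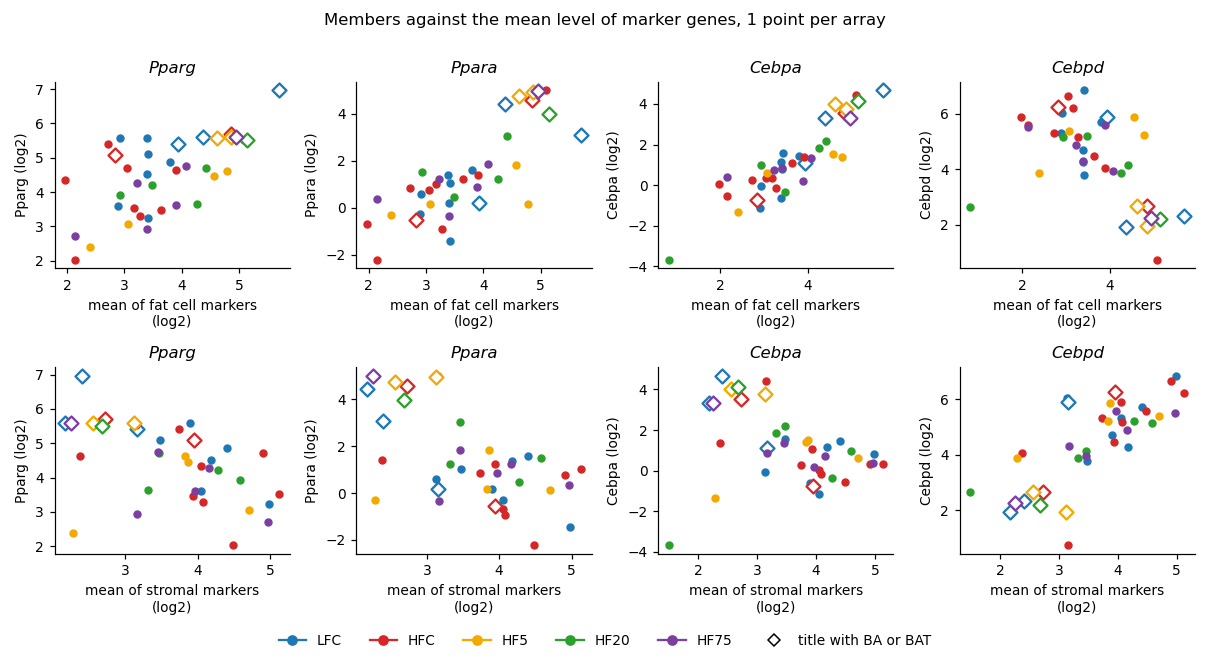
Levels of Pparg, Ppara, Cebpa and Cebpd (y axes, log2 signal relative to the 75th percentile) against the mean level of the fat cell markers (top) and stromal markers (bottom) on the same array, coloured by diet, with open diamonds for arrays with BA or BAT in the title. Cebpa rises along the fat cell markers (r = 0.892) and Cebpd along the stromal markers (r = 0.762), and HF20 Week 15 lies at the far left of the Cebpa and Cebpd panels.

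Among 8156 genes well above background on all arrays, those most like each member over 35 to 39 arrays were found by Pearson r. For Pparg they were Ttc7b (0.901), Adipor2 (0.872), a receptor of adiponectin, and Aqp7 (0.868), the glycerol channel. For Ppara they were Ndufa10 (0.961), Nit2 (0.961) and Prdx3 (0.958), and for Cebpa they included Cenpv (0.970) and Ogdh (0.963). Ndufa10 is a subunit of complex I of the respiratory chain, and Prdx3 and Ogdh are mitochondrial enzymes.

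For Cebpb they were Umps (0.897), Arl4a (0.889) and Tspo (0.869). For Cebpd they were Socs3 (0.941), the feedback inhibitor of cytokine signals, Hbegf (0.939), a growth factor, and Agpat4 (0.932). The values were lower for the other 4 members. They were Gm14131 (0.723), Polr2a (0.714) and Bcor (0.684) for Ppard, LOC100045866 (0.723), Zbtb7a (0.703) and Gm10784 (0.671) for Rxra, LOC633367 (0.825), Vldlr (0.812) and Gm3982 (0.794) for Klf15, and Atn1 (0.761), Gnptg (0.731) and Aplp2 (0.727) for Ebf1.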

How the data were processed

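RNA of brown fat stromal vascular cells was hybridised to 39 Agilent arrays of 1 colour. Per the file headers, the spot intensity in the deposited scanner files had its background subtracted by Feature Extraction 10.5.1.1 (the labels name 9.1), and arrays were not yet normalized to one another. Values of the deposited series table are log2 values that the authors shifted to the 75th percentile and set relative to the control array of the same time label, and the table was used for gene symbols and the label check alone. The members and gene lists were chosen with earlier results of these data known. The study's methods describe the liver arrays of the same feeding experiment.

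Log2 of the processed signal minus the 75th percentile of the array was used. Marked outlier spots were dropped, saturated spots were kept, spots of a probe were averaged, and the brightest probe by mean over the arrays stood for a gene. Probes well above background on at least 6 arrays were tested, 34035 of 40628. Arrays have no read depth, and signal over background and the number of arrays limit the precision. limma 3.58.1 in R 4.3.3 was fitted with diet and time label as terms. The time label serves as the block because the labels give each label as a shared day of the experiment. Two-sided p-values were adjusted over all tested probes (Benjamini-Hochberg). The fits were tested on simulated data. Slide and scan date (18 dates, 36 slides) as random blocks used statmod 1.5.0, and other steps Python 3.11.15, numpy 2.4.6, pandas 2.3.3, matplotlib 3.10.9 and Biopython 1.88.

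The text names the 9 members, up to 4 genes of each list in list order or any gene called, and the 3 genes most correlated with each member, except some genes that are not reported here. The lists were factors that promote or restrain fat cell formation, receptor partners and coregulators, targets of the receptors, and markers of 9 cell types. Alternatives changed the normalization, background correction, probe filter, marked spots, array weights, blocks, probe rule and the arrays or labels left out. The title comparison, a term for the token, the exchange of the Day 14 arrays, and the fits without HFC Week 6, without LFC Week 18 and without HFC Week 12 and LFC Day 10 were added after seeing the data. Cebpd has no promoter entry in the table used here.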

Additional observations from a re-analysis of the deposited data

Results flagged for a closer look

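Within each diet of 5 to 10 arrays with a value, the gap between the highest or lowest array and its neighbour was set against Dixon's 95% critical value, which chance passes in about 1 of 20 groups. Of 36 groups of a member and a diet, 2 passed. Cebpa in HF75 was highest at Week 15, at 3.32 with the other 5 arrays between 0.20 and 1.36, a gap of 0.628 of the whole range. That array carries BA or BAT in its title. Ebf1 in HF20 was lowest at Week 15, at -2.42 with the other 5 arrays between -0.97 and -0.26, a gap of 0.673 of the range. That array has 71.4% of its spots marked as outliers and the highest 75th percentile, 3974.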

How the results depend on the processing

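No member was called in any of the alternatives for a diet or dose comparison, and no member value that was called turned its sign. Of 2145 member values under 31 alternatives, 13 lost a call, 6 gained one, 5 that were not called moved by more than the residual SD, and 2121 did none of these. Of 72 member values, 18 had 1 sign in every setting. In the title comparison Pparg, Ppara and Cebpa were called in all 28 alternatives, Cebpd in 25, Cebpb in 21, Ppard in 24 of 27, Klf15 in 5 and Rxra in 1. Cebpd lost its call with normexp and without Week 12 (-1.75) or Week 15 (-1.55). Cebpb lost its call without HF20 Week 12 (0.99), without the 3 arrays with over 10% of spots marked (0.92) and without Week 12 (0.88), Week 15 (0.90) or Week 18 (0.81), and Ppard without Week 9 (-1.08) and with no block (-1.07).

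Probes called in HFC minus LFC, 0 as analysed, numbered 4 with quantile normalization, 2 among probes above background on all 39 arrays, 26 with array weights, 2 without titled arrays, 1 without HF20 Week 12, 4 with a term for the title, and 0 to 1 with each label left out. In HF75 minus HFC they numbered 3 without titled arrays and 1 with the title term. The dose slope had 18 with array weights, 74 with the title term, and 0 to 7 with each label left out (7 without Week 15). The time slope had 6 with quantile normalization, 12 among probes on all 39 arrays, 158 with array weights, and 0 to 1 with each label left out. The title difference had 17820 as analysed, 10453 with quantile normalization, 28375 with normexp, 4923 among probes on all 39 arrays, and from 10061 (without Week 12) and 10308 (without Week 9) to 20338 with each label left out. Without the time label as a replicate block it had 16096, and the diet and dose comparisons 0. The cause of these changes was not tested.

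Dim probes limit the reading: Ppard was above background on 12 of 39 arrays. The methods describe a t-test between replicate control and treated values at each time point, which single arrays do not allow. A t-test over the arrays of each diet across time labels gave 0 probes after adjustment in the 4 diet comparisons. Before adjustment, 1284, 1539, 1759 and 2131 probes had a p under 0.05 by this t-test, which mixes diet with time.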
